A study of Mus musculus with 6 samples.

Results

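The enzymes that activate ubiquitin and its relative NEDD8 and pass them to their targets were measured as mRNA in the intestine of irradiated mice. The list has 10 genes: the E1 enzymes Uba1, Uba6 and Uba3 with its partner Nae1, the E2 enzymes Ube2m and Ube2f, the modifier Nedd8, its protease Senp8, and the ligase subunits Rbx1 and Cul3. They were taken by gene symbol, current or older, from the annotation of the array probes, and 8 of the 10 had a named probe, out of 19057 named genes. Uba1 and Ube2m had none and are not analysed here. The list was chosen by a measured value, the higher signal of the Uba3 probe with free ubiquitin (free Ub), so the difference of Uba3 is a description without a test. The other members come from the same comparison and are described with their intervals.

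RNA came from intestines of male C57 mice, 4 weeks old per the sample labels, that all received a single total body dose of 7 Gy. PBS or free Ub followed, with 3 samples for each, and the labels place the tissue 3.5 days after radiation. The study's methods and a legend give an older age, an earlier time and injection ahead of radiation. No unirradiated intestine is among the samples, so every difference is between irradiated groups. Each sample was read on 1 Illumina MouseWG-6 v2 array, a bead array with several probes for many genes, and the signals are log2 values normalized by the authors. The labels do not say whether each array is a separate mouse, so intervals and p-values measure the spread between these samples, which may be technical. A gene's value is that of its brightest probe, the one with the highest mean over the 6 arrays. The other probes are given beside it for the members, while for all other genes only the brightest probe is shown. In whole intestine, fewer cells of a type and less RNA per cell cannot be told apart.

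Ubiquitin and NEDD8 are small proteins that are joined to lysines of other proteins through a relay of enzymes. An E1 enzyme binds the modifier as a high-energy thioester at the expense of ATP, an E2 enzyme takes it over, and an E3 ligase directs it to a substrate. NEDD8 has its own E1, made of the catalytic subunit Uba3 and the regulatory subunit Nae1, and its best known targets are the cullins, the scaffolds of the cullin-RING ubiquitin ligases. NEDD8 on a cullin switches the ligase on, and the COP9 signalosome takes it off.

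On the array level, PBS replicate 1 stood apart. Its correlation with the other 5 arrays over all probes was 0.926 to 0.934, against 0.941 to 0.945 among those 5, and limma's array weights, which grow with the precision of an array, gave it 0.256 against 0.765 to 2.16. Markers of intestinal epithelium, all 12 with a named probe, had a median signal of 9.65 to 10.18 log2 on the 6 arrays. The median of the 10 smooth muscle markers lay between 7.72 and 9.00, of the 7 immune markers between 5.15 and 5.76, and of the 8 endothelial markers between 4.98 and 5.67. The 8 measured markers of pancreas varied most, from 6.79 in free Ub replicate 3 to 13.95 in PBS replicate 3. No marker with a named probe was at the lowest value of the array, its floor, throughout. By mean signal 6 of the 12 epithelial markers were higher with free Ub and 6 lower, with a median difference of 0.01. That median was 0.12 without PBS replicate 1 and -0.09 without PBS replicate 3. Of the smooth muscle markers 9 of 10 were higher, with a median of 0.23. It was 0.55 without PBS replicate 1 and -0.16 without PBS replicate 3. Of the endothelial markers 6 of 8 were lower (median -0.32, and -0.43 to -0.25 with 1 array left out). Of the immune ones 4 of 7 were higher (median 0.01) and of the pancreas ones 8 of 8 lower (median -0.90, and 0.71 without free Ub replicate 3). In limma 0 of the 45 markers were under 0.05 after adjustment and 3, or 6.67%, before it, against 5.74% of all named genes. These 3, named after their values were seen, were the epithelial Cdx2 and the endothelial Eng and Robo4, lower with free Ub. The part of these markers in the results was not tested.

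Uba3, the catalytic subunit of the NEDD8 E1, was the member with the largest difference in signal among the brightest probes. It read 5.04, 6.12 and 6.24 log2 with PBS and 6.99, 6.59 and 7.05 with free Ub. The groups did not overlap, and PBS replicate 1 lay more than 1 log2 below every other array. The means were 5.80 ± 0.66 with PBS and 6.88 ± 0.25 with free Ub (SD, n = 3 per group), a difference of 1.08 log2 or 2.11-fold. Without PBS replicate 1 the PBS mean was 6.18 and the difference 0.70. Leaving out any other array gave a difference of 0.99 to 1.30. Only 1 probe of the array is named for Uba3, so no second named probe reads the same transcript. The spread of Uba3 within groups, an SD of 0.50, was larger than that of 95.3% of the 1445 genes whose mean signal lay within 0.5 log2 of its own. In PBS replicate 1 the medians of the epithelial (10.18), smooth muscle (9.00) and immune markers (5.76) were each the highest of the 6 arrays. The medians of the endothelial and pancreas markers were not. Gene by gene, most smooth muscle markers were highest in PBS replicate 1, but most epithelial and most immune markers were highest on another array. The immune median was the value of Cd79b, 5.76 in PBS replicate 1 and 5.75 in free Ub replicate 1. The part of these markers in the signal of Uba3 was not tested.

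Nae1, the subunit that pairs with Uba3, did not show this pattern. Its brightest probe read 9.50, 9.14 and 9.34 with PBS and 9.13, 9.39 and 9.58 with free Ub. The lowest and the highest value were both in the free Ub group, and the means of 9.33 ± 0.18 and 9.37 ± 0.23 differed by 0.04 (95% interval -0.38 to 0.45), or by -0.07 without free Ub replicate 3 and 0.16 without free Ub replicate 1. In PBS replicate 1, where Uba3 was lowest, Nae1 was second highest. A dimmer probe of Nae1 had 4.51 ± 0.31 and 4.31 ± 0.51, a difference of -0.21 with groups that overlapped. Whether the differences of Uba3 and Nae1 are unequal was not tested, since the difference of Uba3 chose the list.

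**Figure D1:**
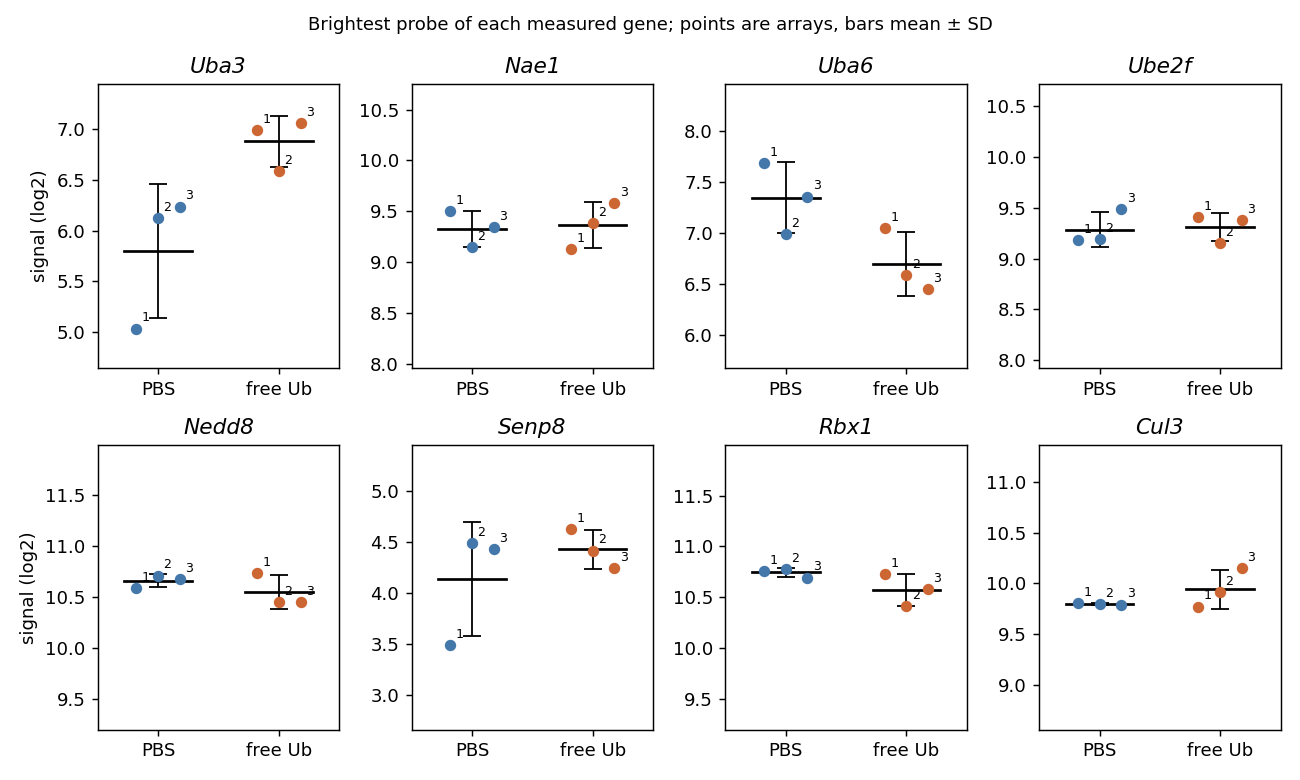
Signal (log2) of the brightest probe of each of the 8 measured genes on the 3 PBS and 3 free Ub arrays, with the replicate number at each point; lines are means, bars SD, and every panel spans the same range of 2.8 log2. Uba3 separates the groups, with PBS replicate 1 lowest at 5.04, while the groups overlap for the other 7 genes.

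Uba6 encodes the other E1 for ubiquitin, which also activates the modifier FAT10, and its probes went opposite ways. The brightest read 7.69, 6.99 and 7.36 with PBS and 7.05, 6.59 and 6.45 with free Ub. The groups touched only where free Ub replicate 1 exceeded PBS replicate 2, and the means of 7.35 ± 0.35 and 6.70 ± 0.31 differed by -0.65 (95% interval -1.33 to 0.03), 1.57-fold lower with free Ub. The second probe was dim and read 3.29, 2.33 and 3.54 with PBS and 4.16, 3.60 and 3.59 with free Ub. On it every free Ub value was above every PBS value, by a mean of 0.73 (95% interval -0.30 to 1.76), which was 0.37 without PBS replicate 2, the lowest. The annotation pairs the brighter probe with a cDNA clone and the dimmer one with the RefSeq mRNA of Uba6, and the mean of both probes differed by 0.04. A direction for Uba6 therefore cannot be given.

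Ube2f is an E2 enzyme that receives NEDD8 from the Nae1 and Uba3 dimer, and it had 4 probes, all annotated to the same RefSeq transcript. Its brightest probe read 9.18, 9.19 and 9.49 with PBS and 9.41, 9.16 and 9.38 with free Ub. The groups overlapped almost fully, with a difference of 0.03 (95% interval -0.30 to 0.36) that was -0.02 without PBS replicate 1 and 0.13 without PBS replicate 3. The next probe, at a mean of 8.75, was among the steadiest of its brightness: its SD within groups was 0.05, and 1.3% of the 1251 genes of similar signal had a smaller one. It read 8.63, 8.69 and 8.75 with PBS and 8.85, 8.75 and 8.81 with free Ub, a difference of 0.11 (95% interval -0.01 to 0.24) in which the groups were separated by less than 0.01 log2.

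Both remaining probes of Ube2f were lowest in PBS replicate 1 and overlapped between the groups. One read 6.27, 7.11 and 7.73 with PBS and 7.69, 7.65 and 7.49 with free Ub, the other 6.56, 7.14 and 7.62 with PBS and 7.48, 7.39 and 7.48 with free Ub. Their differences were 0.57 and 0.35, 0.19 and 0.08 without that array, and 0.92 and 0.61 without PBS replicate 3. PBS replicate 1 was the lowest array for 3 of the 4 Ube2f probes, for the probe of Uba3 and for the brighter probe of Senp8, 5 of the 16 member probes in all. Counted by brightest probe, it was the lowest for 2 of the 8 members. Over the 11923 named genes above the floor on every array, also by brightest probe, it was the lowest in 18.9% and the highest in 25.8%.

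**Figure D2:**
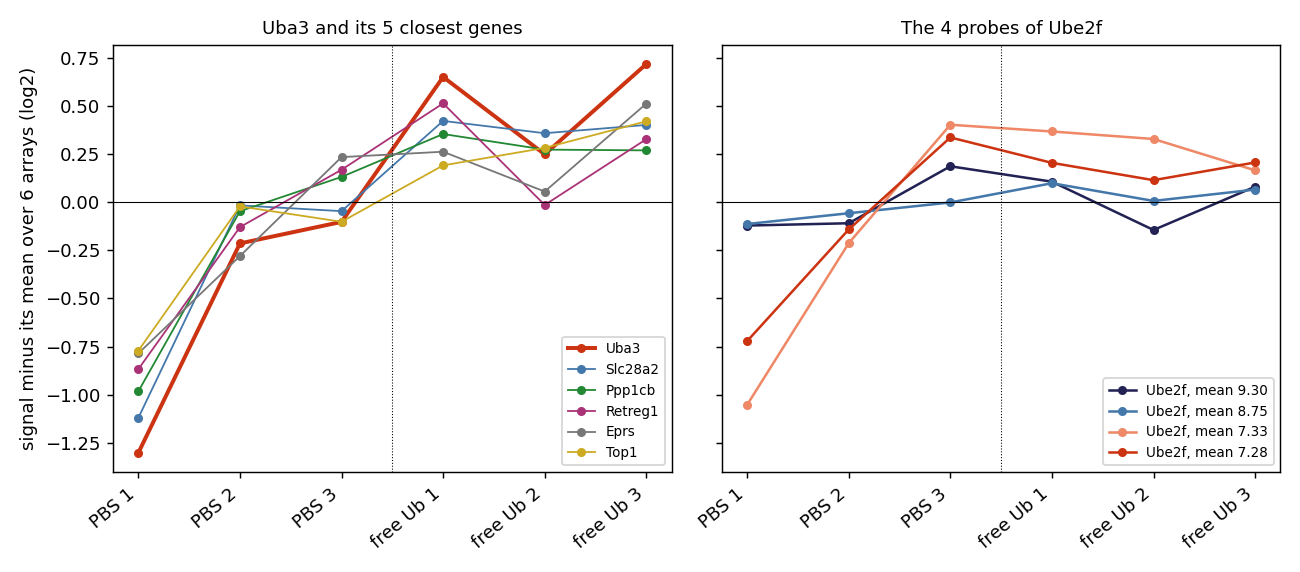
Signal of each probe minus its own mean over the 6 arrays (log2) for Uba3 with the 5 genes of most similar pattern (left) and for the 4 probes of Ube2f (right); lines only join the points of one probe. PBS replicate 1 is the lowest point of Uba3, of its 5 closest genes and of the 2 dimmer Ube2f probes, and the 2 brighter Ube2f probes stay within 0.19 of their means.

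Among 6140 other genes with a mean signal above 6 log2, the 5 closest to Uba3 in pattern were Slc28a2, Ppp1cb, Retreg1, Eprs and Top1. Closeness is the root mean square distance between the centred signals over the 6 arrays, which was 0.20 for Slc28a2, a sodium-coupled nucleoside transporter. It read 7.67, 8.77 and 8.74 with PBS and 9.21, 9.15 and 9.19 with free Ub. Ppp1cb, a catalytic subunit of protein phosphatase 1, lay at a distance of 0.28, Retreg1, a receptor for selective autophagy of the endoplasmic reticulum, at 0.29, and Eprs, a tRNA synthetase, and Top1, the DNA topoisomerase, both at 0.32. All 5 were lowest in PBS replicate 1. Their differences between the groups were 0.55 to 0.79 with that array and 0.26 to 0.42 without it. Among the members with a mean above 6, Ube2f was nearest at 0.62, rank 1157, and Nae1 lay at 0.72. The pattern was sought in the same arrays that chose Uba3, so the order is a description. A low value in PBS replicate 1 and a smaller difference without it were favoured by this choice of genes.

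Nedd8, the modifier itself, had 1 probe and a steady signal. It read 10.59, 10.71 and 10.68 with PBS and 10.74, 10.45 and 10.45 with free Ub. The highest value and the 2 lowest were all in the free Ub group, and the difference was -0.11 (95% interval -0.37 to 0.15). It ranged from -0.21 without free Ub replicate 1 to -0.06 without free Ub replicate 2. Senp8, the protease that trims the NEDD8 precursor and removes NEDD8 from proteins other than cullins, had 2 probes, both dim on this array. Its brighter probe read 3.49, 4.49 and 4.43 with PBS and 4.62, 4.42 and 4.25 with free Ub. PBS replicate 1 was the lowest, and the difference was 0.29 (95% interval -0.57 to 1.15) with it, -0.03 without it and 0.47 without PBS replicate 2. The other Senp8 probe was at the floor in all 3 PBS samples and in free Ub replicate 3 and read 1.72 and 1.81 in the other 2 free Ub samples, so the size of its difference is not measured.

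Rbx1 and Cul3, subunits of the ligases that NEDD8 switches on, had overlapping groups on every probe. Rbx1, the RING protein that docks the E2, read 10.76, 10.78 and 10.69 with PBS and 10.73, 10.42 and 10.58 with free Ub. Only free Ub replicate 1 reached the PBS range, and the difference was -0.17 (95% interval -0.41 to 0.07), or -0.09 without free Ub replicate 2. The second Rbx1 probe differed by 0.05 (-0.24 to 0.33), in the opposite direction, and by -0.02 without free Ub replicate 3. Cul3, the scaffold that takes substrate adaptors of the BTB family, read 9.81, 9.79 and 9.79 with PBS, an SD of 0.01, and 9.77, 9.91 and 10.15 with free Ub. Its groups overlapped through free Ub replicate 1, the lowest of the 6, and the difference was 0.15 (95% interval -0.14 to 0.43). It was 0.04 without free Ub replicate 3, the highest, and 0.23 without free Ub replicate 1. The second Cul3 probe agreed in sign, at 0.10 (-0.04 to 0.23) and 0.06 without free Ub replicate 3, and its SD of 0.06 was undercut by 1.6% of the 1323 genes of similar signal.

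**Figure D3:**
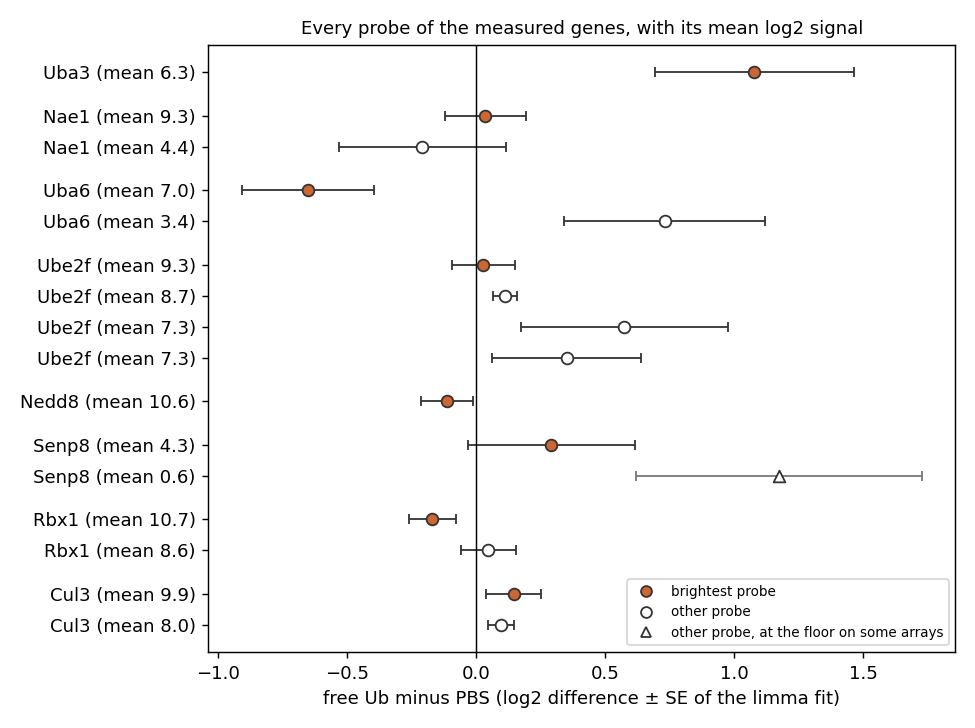
Difference between free Ub and PBS (log2, ± SE from limma) for each of the 16 probes of the 8 measured genes, labelled with the mean log2 signal of the probe. Filled points are the brightest probe of a gene and the triangle has values at the floor; the probes of Uba6, Nae1 and Rbx1 disagree in sign.

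Counted over the brightest probes, 5 of the 8 members had a higher and 3 a lower mean with free Ub, where 44.3% of all named genes were higher and 49.7% lower. The median difference of the members was 0.03, against 0.00 for all named genes, and for the 7 members with a mean above 6 the median size of the difference was 0.15, against 0.12 for the 6141 genes above that signal. In limma 0 of the 8 passed an adjusted p under 0.05 (0.0577% of all named genes did), and the lowest adjusted p was 0.872; with the methods' t-test, unpaired, none passed either. At an unadjusted p under 0.05 there was 1, Uba3, which chose the list; 5.74% of all named genes passed. The same gene was the 1 member whose groups did not overlap, as for 10.4% of named genes. Over the 16 member probes the groups did not overlap for 3, the probe of Uba3, the dim probe of Uba6 and the second of Ube2f, against 10.4% of all probes. As the list came from this comparison, nothing is read from these counts.

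**Figure D4:**
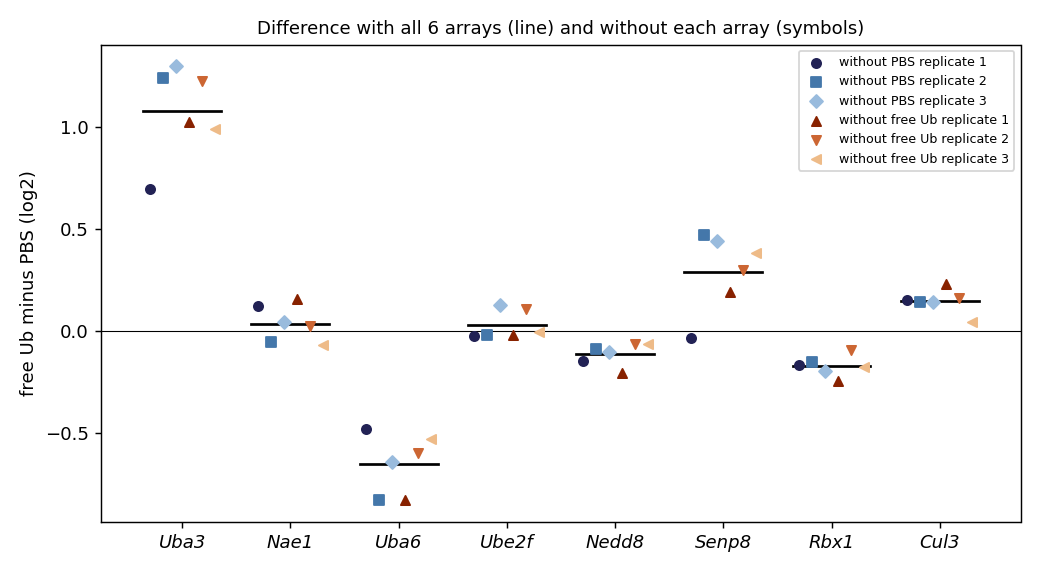
Difference between free Ub and PBS (log2) for the brightest probe of each gene with all 6 arrays (line) and without each array in turn (symbols). Uba3 ranges from 0.70 without PBS replicate 1 to 1.30 without PBS replicate 3, Senp8 falls to -0.03 without PBS replicate 1, and Nae1 and Ube2f cross 0.

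The wider relay was read from 7 lists with 96 other genes, of which 85 had a named probe. Their mean signal was higher with free Ub in 50, lower in 32, and 3 never left the floor, while the median difference was 0.03, and 0.00 without PBS replicate 3 or free Ub replicate 3. None of the 85 passed limma's test after adjustment, the lowest adjusted p being 0.726. Before adjustment, at 0.05, 2 were higher and 2 lower, 4.71% of the 85 against 5.74% of all named genes. The groups did not overlap for 5 higher and 3 lower genes, 9.41% against 10.4% of all named genes.

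Of the 30 measured ubiquitin E2 enzymes 22 were higher in mean signal, 7 lower and 1 at the floor on every array, with a median of 0.10. That is 73.3% higher, where 44.3% of all named genes were. Ube2c, Ube2t, Ube2u and Ube2w, counted as higher, were at the floor on some arrays, so the size of their differences is not measured. In PBS replicate 1 the median signal of the list was lowest, 4.93 against 5.34 to 5.53 on the others. Without that array 19 were higher, or 63.3% against 45.8% of all named genes, with 10 lower and a median of 0.04. Leaving out any other array gave 19 or 20 higher and a median of 0.06 to 0.16. Ube2b, the E2 that works with Rad18 in tolerance of DNA damage, read 9.34, 9.46 and 9.45 with PBS and 9.55, 9.63 and 9.63 with free Ub. Every free Ub value was above every PBS value, by a mean of 0.19 (SE 0.05; limma, unadjusted p = 0.0171, adjusted p = 0.739). Ube2j1, an E2 of the endoplasmic reticulum that serves the degradation of misfolded proteins, read 4.21, 3.49 and 4.33 with PBS and 4.74, 5.08 and 4.77 with free Ub, without overlap and with a difference of 0.85 (unadjusted p = 0.0281 and adjusted p = 0.858 in limma). Ube2o, a large enzyme that joins the roles of E2 and E3, was the 1 E2 at an unadjusted p in the other direction. It read 8.25, 8.30 and 8.23 with PBS and 8.06, 8.08 and 7.87 with free Ub, also without overlap, a difference of -0.26 (unadjusted p = 0.0158 and adjusted p = 0.726 in limma). None of these E2 enzymes passed after adjustment over all probes.

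None of the listed factors beyond the members that place NEDD8 on cullins or remove it reached an unadjusted p under 0.05 in limma. Of 12 measured genes of the COP9 signalosome and NEDD8 processing 9 were higher and 3 lower, with differences from -0.45 to 0.22. Cops5, the catalytic subunit that cuts NEDD8 from cullins, had 9.00 ± 0.16 with PBS and 9.21 ± 0.03 with free Ub without overlap, a difference of 0.21 (95% interval -0.03 to 0.45). Cops6, its partner in the complex, differed by 0.13 (95% interval -0.01 to 0.27), and the protease Usp21, lower without overlap, by -0.45 (-0.96 to 0.07). Among 7 measured factors of cullin neddylation and exchange 2 were higher, 4 lower and 1 at the floor. Of the 11 other cullin-RING scaffolds and cores 5 were higher and 6 lower; Elob, an adaptor of Cul2 and Cul5 ligases, had the lowest difference, -0.23 (95% interval -0.54 to 0.07).

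Substrate adaptors of Cul3 were split evenly, 10 higher and 10 lower with 1 of the 21 at the floor on every array, and a median of 0.00. Klhl21, an adaptor that directs Cul3 to the Aurora B kinase in mitosis, was the 1 at an unadjusted p under 0.05. It read 7.27, 7.25 and 7.04 with PBS and 6.82, 6.75 and 7.01 with free Ub, a difference of -0.33 without overlap of the groups (limma, unadjusted p = 0.0278, adjusted p = 0.855). Among the E1 enzymes of other modifiers 4 of 6 were measured, 2 higher and 2 lower. Uba7, the E1 for the interferon-induced modifier ISG15, had 10.84 ± 0.21 and 10.70 ± 0.07, a difference of -0.13 (95% interval -0.45 to 0.18), and Sae1, of the SUMO E1, differed by -0.09 (-0.46 to 0.28).

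**Figure D5:**
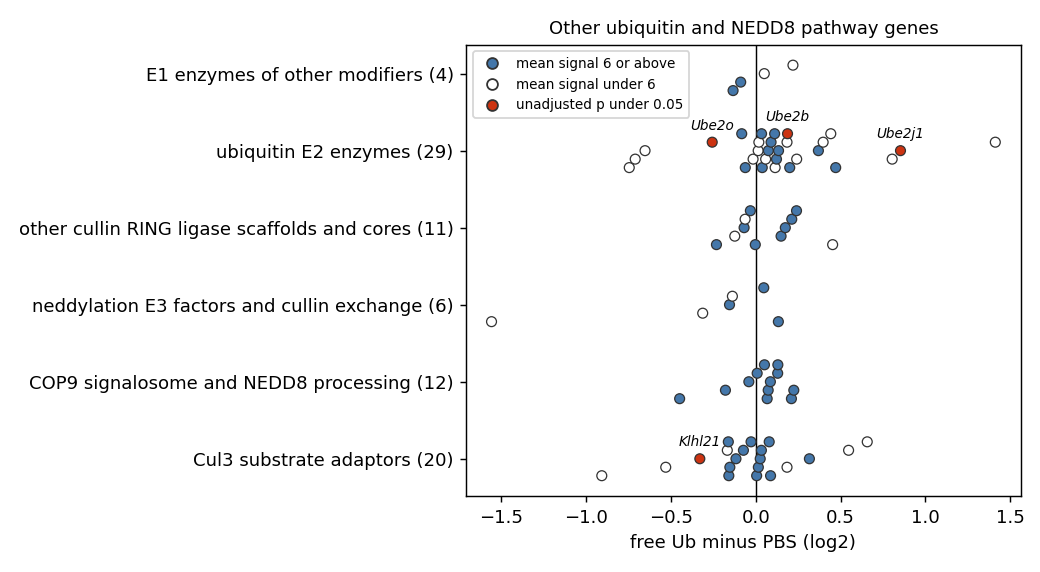
Difference between free Ub and PBS (log2) for the brightest probe of each other gene of the ubiquitin and NEDD8 pathways, by list with the number of genes drawn; genes always at the floor are left out. Ube2b, Ube2j1, Ube2o and Klhl21 are marked at an unadjusted p under 0.05 in limma, and 0 of 85 passed after adjustment.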

How the data were processed

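Per the labels, rRNA was removed from the RNA of 6 intestine samples before hybridisation, 3 samples for each group. Cubic-spline normalization in GenomeStudio was done by the authors. The deposited values were read as log2 from their range, since no source states the transform, and background handling is not given in the sources used here. From 32.2% to 33.7% of probes per array lie at its lowest value, and a value within 0.01 of it is called at the floor. Detection calls are not among the values used here, so dim probes were told apart by their signal only.

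Of 45281 probes 34885 have 1 gene symbol, 18 several and 10378 none; the last 2 kinds were not named. All probes were fitted with limma 3.58.1 in R 4.3.3 (free Ub minus PBS, no covariate, two-sided, Benjamini-Hochberg over all probes), after a test on simulated data. The labels do not state litters or batches. Exact permutation of 3 against 3 cannot go below p = 0.1. Named were all members, up to 3 genes per pathway list with the smallest p, with values for those under 0.05 in limma, and the 5 genes closest to Uba3; values of list genes that missed this threshold were added after they were seen. Of the pathway lists 1 is not reported here. The members and lists were chosen with earlier results of these data known. The settings were varied by median centring, quantile normalization, raising low values to 4 or to 6, a filter on dim probes, an intensity trend, array weights, the replicate block, the methods' t-test, the mean of a gene's probes and leaving out each array.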

Additional observations from a re-analysis of the deposited data

How the results depend on the processing

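With 3 arrays per group and no detection calls, small differences of dim probes were not detectable. The member count at an adjusted p stayed at 0 in every alternative run. Members at an unadjusted p, 1 as reported, were 2 with values under 4 or under 6 raised to these floors, for probes above the median of probe means (2.09) and with array weights, each time Uba3 and Uba6, and 0 with the methods' t-test, unpaired. They ranged from 0 to 3 when 1 array was left out, with 3 without free Ub replicate 1 (Uba6, Nedd8 and Rbx1). Uba6 stood in place of Uba3 without PBS replicate 2, and there were 0 without free Ub replicate 2 or 3. Uba3 chose the list, so whether it is among them is a description and not a test. Members whose groups did not overlap ranged from 1 to 5, with 5 without free Ub replicate 1 and 2 without PBS replicate 2 or 3. Groups with an array left out separate more readily, and the share of all genes was not counted in these runs. Nothing is therefore read from this range. Pathway genes at an unadjusted p, 4 as reported, were 2 with quantile normalization, 1 for the brighter probes and 7 when all probes of a gene were averaged, and 3 to 10 when 1 array was left out, with 10 without PBS replicate 3. Of all probes or genes tested, 5.16% were at an unadjusted p as reported, and 3.44% to 7.74% in the other settings with all arrays. Leaving out 1 array gave 5.2% to 7.47%, with 6.36% without free Ub replicate 1 and 7.47% without PBS replicate 3. The cause of these shifts in the counts was not tested. The difference of Uba3 was 0.75 with array weights, 0.76 with a floor of 6 and 1.08 in the other 9 settings that keep all arrays. Averaging probes gave 0.04 for Uba6, 0.27 for Ube2f, 0.73 for Senp8 and -0.06 for Rbx1, and turned the sign of Nae1 to -0.09. The Senp8 average includes a probe at the floor in all 3 PBS samples, so its size is not measured. The difference of Ube2f was -0.09 with array weights. The median of the pathway lists without each array was chosen after seeing the data: it ranged from 0.00 to 0.05 over all 85 genes and from 0.04 to 0.16 over the E2 enzymes.

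Deviations from the group means of same-numbered samples correlated at 0.00, 0.02 and -0.09 over 21349 probes, and those of unlike number at -0.09 to 0.09. Such correlations cannot tell whether the replicate numbers pair the samples. The paper's methods name a paired t-test for gene expression. With the replicate block limma gave 1 member at an unadjusted p, Uba6 in place of Uba3, as did the methods' paired t-test, and 5 and 4 pathway genes. Of all probes, 5.4% were at an unadjusted p under 0.05 with the block and 3.44% with the paired t-test. Nothing is read from these counts.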
